A study of Rattus norvegicus with 12 samples.

Results

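The names annotated as Piwi-interacting RNAs (piRNAs) in small RNA libraries of cultured rat cortical neurons are described here. They were taken as every name in the deposited tables that starts with rno_piR, which gave 120 of 805 small RNA names, and the other 685 were miRNA names. Cortices came from Sprague Dawley embryos of day 17, and the dissociated neurons were seeded at 100000 per square centimetre. On day 10 of culture lentivirus was added, and RNA was taken on day 14. A non-targeting shRNA (shNTC), an shRNA to Stau2 (shStau2) or an shRNA to Pum2 (shPum2) was delivered in this way, and each group had 4 libraries numbered 1 to 4. Stau2 encodes the double-stranded RNA-binding protein Staufen2, and Pum2 encodes Pumilio 2, which binds single-stranded motifs in mRNAs. The shPum2 group was included as a second control, for changes that any shRNA brings. The sources used here do not give the shRNA sequences, their promoter or the number of shRNAs per gene, nor whether a replicate number stands for 1 neuron preparation. Small RNA libraries hold no Stau2 or Pum2 mRNA level, so the depletion itself was not checked.

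piRNAs are small RNAs, longer than miRNAs, that are loaded into Piwi proteins instead of Argonaute proteins of the miRNA pathway. They are made without Dicer from long single-stranded precursors and are best known for silencing transposons in the germ line, above all in the testis. Small RNAs that match piRNA catalogues have also been found in brain, and some catalogue entries overlap fragments of other non-coding RNAs such as tRNAs and snoRNAs. The deposited tables hold a name and a count but no sequence or position, so which of the 120 names such an overlap concerns was not tested, and no piRNA sequence is printed. Piwi loading was not measured either.

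The piRNA names were a small part of every library, at 0.684% to 0.989% of all counts. Totals per library lay between 3836349 and 5415763 counts, of which 31551 to 43721 fell on piRNA names. The Wilson 95% interval was 0.677% to 0.692% in the library with the lowest share and 0.980% to 0.998% in the library with the highest. These intervals cover counting error only, and the sources used here do not say whether molecules or reads were counted. The libraries held the miRNAs that mark neurons, with 5 of 5 neuronal markers (miR-9a-5p, miR-124-3p, miR-128-3p, miR-137-3p and miR-138-5p) at a summed 266053 to 333917 CPM (counts scaled to a common library size). Of 23 testis-enriched miRNAs, 11 were in the tables, at a summed 18.9 to 39.6 CPM.

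A count of 0 had to be read with care, because zeros did not fall independently in the libraries. They fell in 3 sets of 4 libraries. The first set (A) held replicate 1 of all groups and shStau2 replicate 2. The second (B) held replicates 2 and 3 of shNTC and of shPum2. The third (C) held replicate 4 of all groups and shStau2 replicate 3. No shStau2 library was in set B. Of 518 zeros over all 805 names, 516 belonged to a name that was 0 throughout a set. Among the piRNA names, 18 were 0 throughout set A, 18 throughout set B and 14 throughout set C. In all, 32 piRNA names were 0 throughout at least 1 set, 14 of them in 1 set and 18 in 2 sets, and 51 miRNA names did the same. The smallest sum over the 4 libraries of a set that any name with counts reached was 13, 19 and 21 counts in sets A, B and C. The sources used here do not say what made these sets. A listed 0 therefore could not be read as absence, and no upper limit was computed from it.

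**Figure D1:**
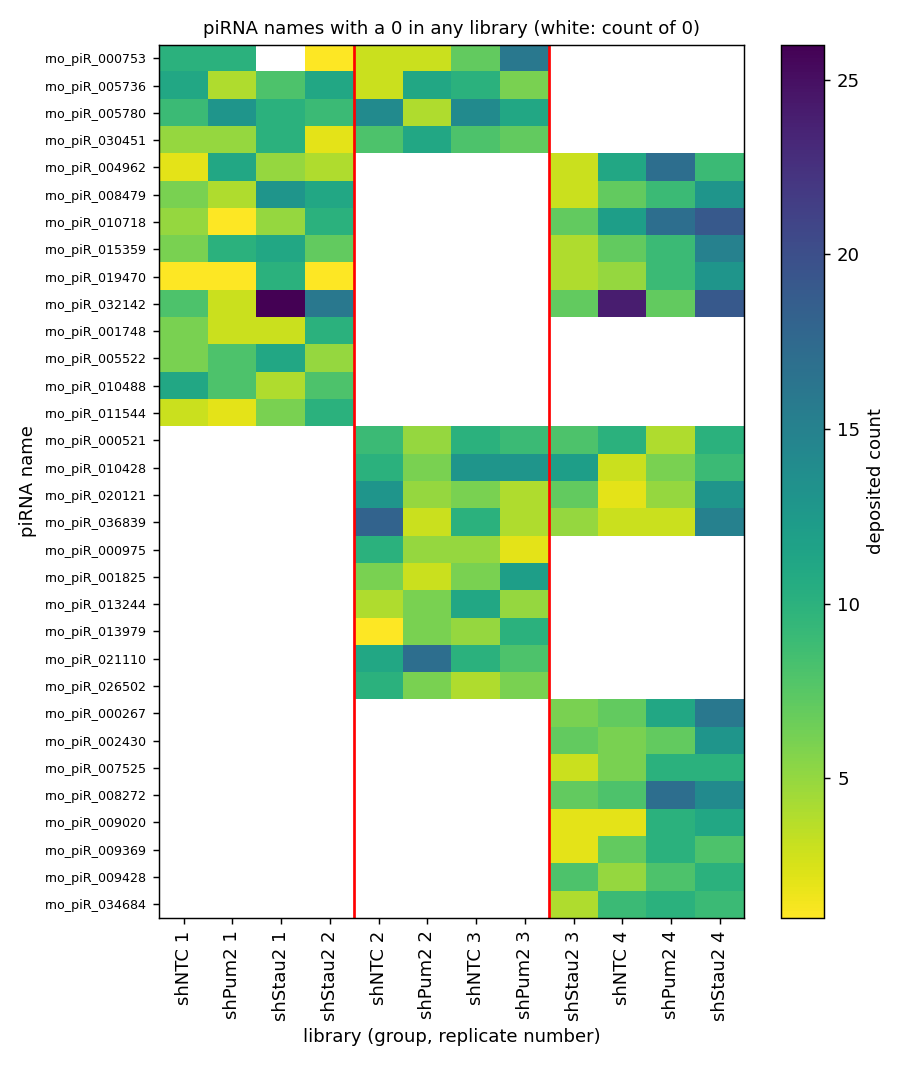
Deposited counts of the 32 piRNA names that had a 0 in any library, with 1 row per name and 1 column per library (group and replicate number), colour for the count and white for 0; red lines separate the 3 sets of libraries. The white areas fill whole sets of 4 libraries, and the exception is rno_piR_000753, at 0 in shStau2 replicate 1 but not in the rest of its set.

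The number of piRNA names with at least 1 count followed these sets. It was 102, 102, 102 and 106 in shNTC replicates 1 to 4, and the same in shPum2. In shStau2 it was 101, 102, 106 and 106. All 4 libraries with 106 names were those of set C. The mean was 103 ± 2 for shNTC and for shPum2 and 103.8 ± 2.63 for shStau2 (SD, n = 4). In the exact permutation test over libraries p was 1 in each of the 3 comparisons.

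Of the 120 piRNA names, 88 had a count in all 12 libraries and none was 0 in all of them. On the scale of CPM after trimmed mean of M-values (TMM) scaling, 17 names averaged at least 100 CPM, 47 at least 10 CPM and 100 at least 1 CPM, and 20 stayed below 1 CPM. A filter on low counts left 90 piRNA names for testing and removed 30. The names just inside it were rno_piR_010428, rno_piR_010718 and rno_piR_008668, with means of 1.30, 1.44 and 1.99 CPM. The names just outside were rno_piR_019966, rno_piR_005780 and rno_piR_015359, with means of 1.66, 1.51 and 1.31 CPM. The 90 tested names carried 99.7% of the piRNA counts.

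A few names dominated. The most abundant, rno_piR_005595, held 12.7% of the piRNA counts on average, and between 10.5% and 14.3% in single libraries. The first 2 names together held 25.1%, the first 5 held 47.0%, the first 10 held 68.3% and the first 20 held 86.4%. The sum of the first 10 hardly moved among libraries, at 66.9% to 69.9%. Even the leading name stood only at rank 76 of the 805 small RNA names by mean CPM, and the tenth, rno_piR_008639, at rank 151.

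In rno_piR_005595 the shNTC libraries were at 944, 932, 926 and 1157 CPM in replicates 1 to 4. Its shStau2 libraries were at 1124, 1133, 1048 and 1219 CPM, and its shPum2 libraries at 1050, 1188, 1002 and 1101 CPM. The shNTC libraries 1 to 3 lay below every library of the other groups, but shNTC replicate 4 lay among them. In rno_piR_001414, the second name, the shNTC libraries were at 1025, 865, 966 and 1019 CPM. Its shStau2 libraries were at 999, 1003, 1070 and 1360 CPM, and its shPum2 libraries at 954, 1227, 862 and 1279 CPM. The groups overlapped, and the highest values were those of shStau2 and shPum2 replicate 4. In rno_piR_001199, the third name, shNTC libraries were at 850, 798, 547 and 615 CPM, shStau2 libraries at 726, 843, 575 and 773 CPM, and shPum2 libraries at 673, 832, 470 and 879 CPM. Here replicate 3 was the lowest library in each group. The following 7 names were rno_piR_005901 (mean 619 CPM), rno_piR_005567 (523), rno_piR_005787 (470), rno_piR_000685 (409), rno_piR_005598 (359), rno_piR_005556 (319) and rno_piR_008639 (266). Between the groups none of the 10 passed the edgeR test in any comparison, without or with the replicate number in the model.

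**Figure D2:**
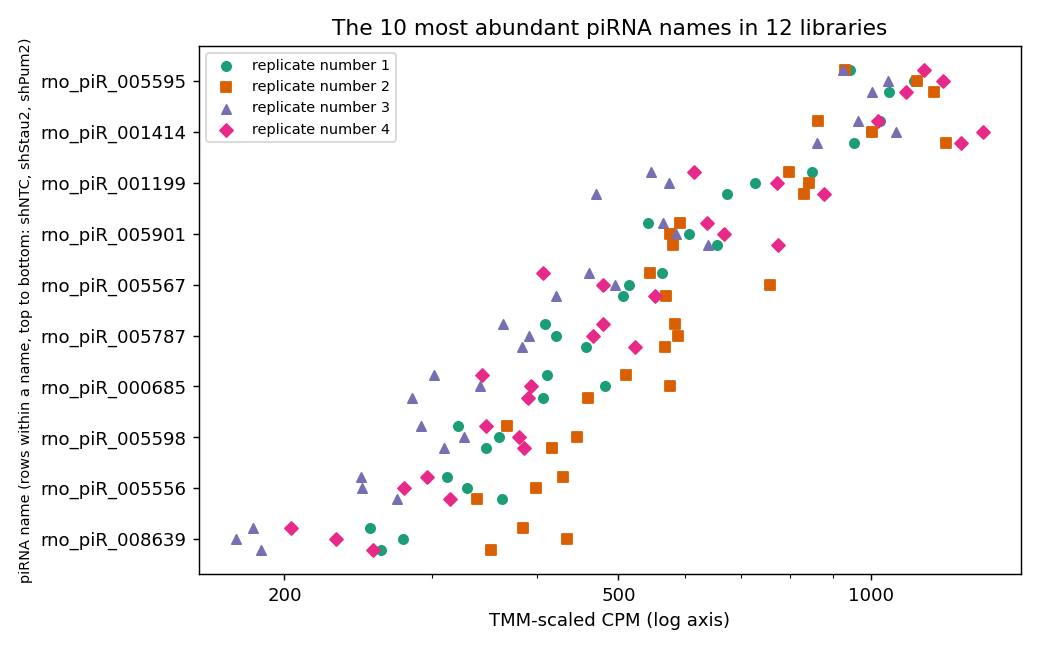
TMM-scaled CPM (log axis) of the 10 most abundant piRNA names, with 1 point per library, 3 rows of points per name (shNTC, shStau2 and shPum2 from top to bottom), and colour and symbol for the replicate number. In most names the triangles of replicate number 3 lie at the left in all 3 rows, for example at 175 to 187 CPM in rno_piR_008639, while the rows themselves overlap.

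The most abundant members had low numbers in their names, while scarce members had low and high ones. The names were divided at the widest gap in the database identifiers they carry. The 81 names numbered from 30 to 11544 held 95.2% of the piRNA counts (94.4% to 95.9% over libraries) and all 17 names of at least 100 CPM. The 39 names numbered from 12322 to 37515 held 4.79% and reached no mean of 100 CPM. Of the 20 names below 1 CPM, 14 were in the first block and 6 in the second. Median levels of the 2 blocks were 8.49 and 4.77 CPM. These numbers are labels in a catalogue, and neither sequence nor genome position was read from them.

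The share of piRNA names followed the replicate number more closely than the group. In shNTC it was 0.838%, 0.942%, 0.686% and 0.822% in replicates 1 to 4. In shStau2 it was 0.860%, 0.989%, 0.708% and 0.882%, and in shPum2 0.849%, 0.968%, 0.684% and 0.983%. Replicate 3 was the lowest library of each group, and replicate 2 the highest in shNTC and shStau2. By number, the means over the 3 groups were 0.849% ± 0.0108, 0.967% ± 0.0234, 0.693% ± 0.0131 and 0.896% ± 0.0810 (SD, n = 3). Of the sum of squares within groups, 92.7% lay between numbers, which hold 3 of the 9 degrees of freedom. Of the total sum of squares, 89.1% lay between numbers and 3.85% between groups. shStau2 replicate 2 is in set A of the shared zeros and had a share near those of the other replicates 2, which are in set B. shStau2 replicate 3 is in set C and had a share near those of the other replicates 3, also in set B. The part of the sets in the share was not tested.

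**Figure D3:**
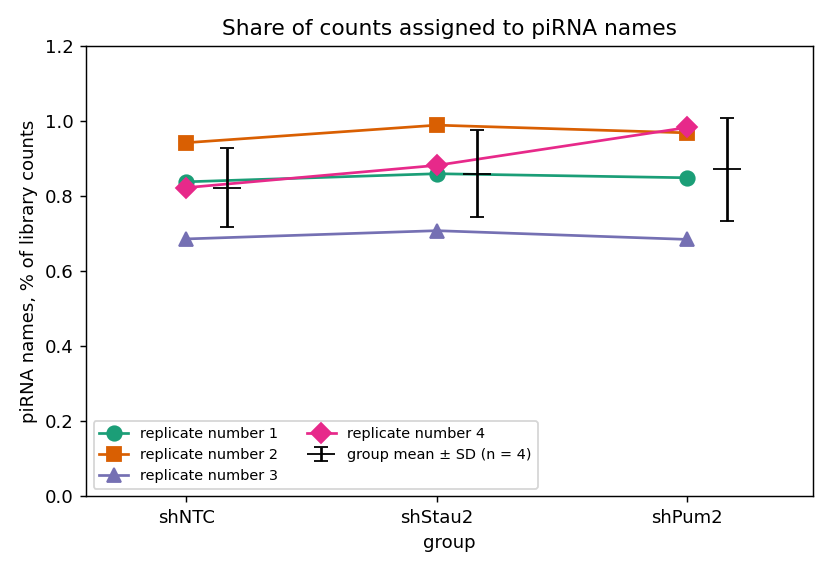
Share of library counts assigned to piRNA names (y axis, percent) in the 3 groups (x axis), with 1 point per library, lines joining the same replicate number, and black bars for the group mean ± SD (n = 4). The line of replicate number 3 runs lowest, at 0.684% to 0.708%, and the group means differ by less than their SD.

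Averaged by group, the share was 0.822% ± 0.105 for shNTC, 0.860% ± 0.116 for shStau2 and 0.871% ± 0.138 for shPum2 (SD, n = 4). The difference of shStau2 from shNTC was 0.0374 percentage points (exact permutation p = 0.657, two-sided). All 4 same-number pairs were higher in shStau2, with a pair difference of 0.0374 ± 0.0188 (SD, n = 4 pairs). The exact paired permutation p was 0.125, the smallest that 4 pairs allow. Without shNTC replicate 3 the unpaired difference became -0.00805, and without shStau2 replicate 2 it became -0.00573. Such an omission leaves the replicate numbers unequal between the groups, and the share differed by number. The difference of shPum2 from shNTC was 0.0490 (exact permutation p = 0.486) with 3 of 4 pairs higher (exact paired p = 0.25). The difference of shStau2 from shPum2 was -0.0116 (exact permutation p = 1), although 3 of 4 pairs were higher in shStau2. It turned positive without shPum2 replicate 2 (0.0209), without shStau2 replicate 3 (0.0390) and without shPum2 replicate 4 (0.0257). None of 15 such tests, over 5 quantities and 3 comparisons, passed after Benjamini-Hochberg adjustment (adjusted p = 1 for all, exact permutation tests), and 0.0286 was the smallest p that 4 against 4 libraries allow.

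Within the sets of shared zeros, the share differences of shStau2 from shNTC and from shPum2 did not keep a direction, and that of shPum2 from shNTC did. Between shStau2 and shNTC the difference was 0.0862 in set A and -0.0277 in set C, and set B has no shStau2 library. Between shPum2 and shNTC it was 0.0108, 0.0124 and 0.160 in sets A, B and C. Between shStau2 and shPum2 it was 0.0755 in set A and -0.188 in set C. These values rest on 1 or 2 libraries a side and carry no test. Since a set holds different replicate numbers, and the numbers differ in their share, set and number cannot be fully separated in them.

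Removing the most abundant name lowered the share differences from shNTC but kept their direction. The portion of rno_piR_005595 within the piRNA counts was 12.3% ± 1.67 for shNTC, 12.9% ± 0.922 for shStau2 and 12.8% ± 0.865 for shPum2 (SD, n = 4). Exact permutation p was 0.571 between shStau2 and shNTC, 0.686 between shPum2 and shNTC and 0.829 between shStau2 and shPum2. With that name removed, the share differences were 0.0274, 0.0390 and -0.0116 in the same order (exact permutation p = 0.657, 0.571 and 1).

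Single piRNA names showed the same replicate structure as their sum. Each library's log2 CPM was set against its group mean, and these deviations were correlated across the 90 tested piRNA names. For the 12 pairs of libraries with the same number in different groups, Pearson's r lay between 0.326 and 0.695, with a median of 0.533. For the 36 pairs with different numbers in different groups it lay between -0.571 and 0.175, with a median of -0.18. Deviations within a group sum to 0, so positive r in same-number pairs draws the other pairs below 0. For all 12 libraries the highest r was with a library of the same number. The correlation was highest among the replicates 4, at 0.641 to 0.695, and lay between 0.484 and 0.6 for number 3, 0.328 and 0.644 for number 1, and 0.326 and 0.463 for number 2. Across the 628 tested miRNA names, same-number pairs lay between 0.344 and 0.571. These are correlations across names within libraries, and names are not independent replicates.

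**Figure D4:**
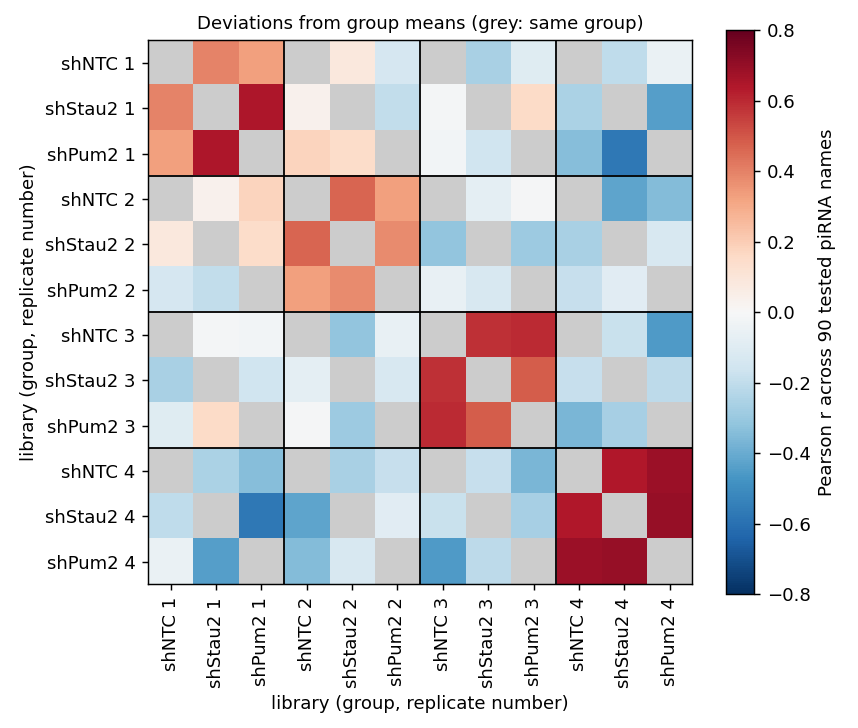
Pearson's r between libraries of different groups (both axes list the 12 libraries ordered by replicate number), computed across the 90 tested piRNA names from deviations from the group mean; red is positive, blue negative and grey marks libraries of the same group. The squares along the diagonal, which hold libraries of 1 number, are red throughout (0.326 to 0.695).

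A test for any difference between the 4 numbers, with the groups in the model (edgeR quasi-likelihood), called 36 of the 90 piRNA names, 40.0%. Over all 718 names tested the same test called 28.3%, and 167 of the 628 miRNA names. Among names of at least 10 CPM it called 29 of 47 piRNA names (61.7%) and 151 of 448 miRNA names (33.7%). The median portion of a name's within-group sum of squares that lay between numbers was 68.2% for piRNA and 57.7% for miRNA names. The median coefficient of variation within groups was 22.2% for piRNA and 17.3% for miRNA names. Among the 36 names called, number 2 had the highest mean for 18 and number 4 for 12, while number 3 had the lowest for 18. Of the 36, rno_piR_010428 and rno_piR_010718 had zeros throughout a set. Without replicate number 4 in any group the test called 22 piRNA names, and with the sets of shared zeros as a covariate it called 14. The shares of all names called in these fits are not given here. The lower counts therefore cannot be read as particular to piRNA names. The test between numbers was added after the data had been seen.

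Names at either end show what this structure looked like. In rno_piR_009003, number means were 38.7, 35.3, 34.1 and 78.8 CPM for numbers 1 to 4, so that number 4 stood more than 2 times above the others, and 97.6% of its within-group sum of squares lay between numbers (edgeR adjusted p = 2.43e-07). In rno_piR_000119, number means were 198, 333, 141 and 208 CPM, with number 2 highest (95.7%, edgeR adjusted p = 5.81e-07). In rno_piR_000685 they were 433, 516, 309 and 376 CPM (95.7%, edgeR adjusted p = 3.78e-05). The order of numbers thus differed between names, with number 4 leading in the first and number 2 in the others. In rno_piR_005787 they were 429, 580, 380 and 490 CPM (96.5%, edgeR adjusted p = 0.000137), and in rno_piR_005598 they were 344, 410, 309 and 372 CPM (96.8%, edgeR adjusted p = 0.00713). At the other end, rno_piR_011541 had number means of 175, 169, 169 and 167 CPM, and 4.81% of its within-group sum of squares lay between numbers (edgeR adjusted p = 0.95). For rno_piR_000699 that portion was 20.9% (edgeR adjusted p = 0.894) and for rno_piR_000965 it was 24.0% (edgeR adjusted p = 0.602). Among the 10 most abundant names, rno_piR_005595, rno_piR_001414 and rno_piR_005901 did not pass this test (edgeR adjusted p = 0.171, 0.122 and 0.109), and the other 7 passed.

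Marker miRNAs were read from the same test between numbers, which called 28.3% of all names. Of the 3 tested microglia and blood miRNAs, all 3 passed, as did 2 of 4 vessel and mesenchyme miRNAs, 1 of 5 neuronal miRNAs, the astrocyte-linked miR-21-5p, 1 of 6 tested testis-enriched miRNAs and 0 of 2 oligodendrocyte miRNAs. The summed neuronal markers averaged 277645, 292815, 326668 and 293240 CPM in numbers 1 to 4, highest in number 3, where the piRNA share was lowest. The summed microglia and blood markers (5 of 5 detected) averaged 154, 165, 136 and 115 CPM. Most of that sum was miR-155-5p, at a mean of 118 CPM over all libraries, where the 5 together averaged 142 CPM. The part of the marker miRNAs in the piRNA results was not tested.

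Some piRNA names varied together over the 12 libraries. Among the 47 names of at least 10 CPM, 4 pairs had consecutive numbers in their names. Group means were first removed from log2 CPM. Pearson's r over the 12 libraries was then 0.946 for rno_piR_001414 and rno_piR_001415 and 0.94 for rno_piR_001198 and rno_piR_001199. It was 0.718 for rno_piR_005900 and rno_piR_005901, and 0.586 for rno_piR_005595 and rno_piR_005596. The median of these 4 was 0.829. It was 0.645 for the 11 pairs whose numbers differed by 2 to 10, and 0.148 for the 1066 pairs that differed by more. Pairs far apart could be as close, with 0.972 for rno_piR_000685 and rno_piR_008639 and 0.969 for rno_piR_005598 and rno_piR_005787. The name most like rno_piR_005595 was rno_piR_005552 (r = 0.815). The libraries share their replicate numbers and the values share library totals, so these r are descriptions. Whether names with neighbouring numbers have overlapping sequences, and so could share reads, was not tested.

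No piRNA name passed the edgeR test between groups without a term for the replicate number. For shStau2 against shNTC, 0 of 90 passed at an adjusted p of 0.05, where 0.279% of all tested names did. At an unadjusted p of 0.05 the count was 1 (1.11%, where 9.89% of all names passed). DESeq2 called 0 piRNA names, where 5.99% of all names with an adjusted p were called, but its filtering left 33 of the 120 piRNA names with one. For shPum2 against shNTC edgeR also called 0 of 90, where the background was 0%, with 5 at an unadjusted p of 0.05 (5.56%, against 1.95%) and 0 by DESeq2 (0% of all names). For shStau2 against shPum2 edgeR called 0 of 90, where the background was 0.418%, with 6 at an unadjusted p of 0.05 (6.67%, against 9.19%) and 0 by DESeq2 (1.12% of all names). DESeq2 gave an adjusted p to all 120 piRNA names in these last comparisons. Each pair of these comparisons shares a group of 4 libraries, so they are not independent. Libraries without overlap between groups were rare. Between shStau2 and shNTC, 1 piRNA name was higher without overlap (background 3.76%) and 0 were lower (5.15%). Between shPum2 and shNTC, 1 was higher (background 0.418%) and 1 lower (0.975%). Between shStau2 and shPum2, 2 were higher (background 2.65%) and 1 lower (2.51%).

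Fold changes of the piRNA names in shStau2 lay above 0 more often than those of all names. This held under each scaling tried on the whole library, though the count above 0 itself depended on the scaling. The median log2 fold change against shNTC was 0.10 over the 90 names and 0.01 over all 718, and 66 of the 90 lay above 0 (73.3%, against 52.6% of all names). Against shPum2 the medians were 0.08 and 0.02, with 64 of 90 above 0 (71.1%, against 53.8%). Since some names varied together, the 90 are not independent observations. The summed piRNA share of shStau2 differed by 0.0374 percentage points from shNTC and by -0.0116 from shPum2. Scaled by library totals alone, the medians against shNTC were 0.04 over the piRNA names and -0.04 over all names, with 54 of 90 above 0 (60.0%, against 40.9%). Against shPum2 they were then 0.03 and -0.04, with 49 of 90 above 0 (54.4%, against 42.5%). Scaled on the piRNA counts alone, 43 of 90 lay above 0 in each of these comparisons. That scaling centres the piRNA names on themselves, so it cannot show a shift of the names as a whole. For shPum2 against shNTC the medians with TMM scaling were 0.04 and 0.00, with 53 of 90 above 0 (58.9%, against 50.6% of all names). In 4 of 4 same-number pairs, 19 names were higher in shStau2 than in shNTC (21.1%, against 17.1% of all names) and 3 were lower (3.33%, against 13.8%). For shStau2 against shPum2 these counts were 15 higher, where 14.6% of all names were, and 6 lower, where 12.0% were. For shPum2 against shNTC they were 8 higher, where the background was 6.27%, and 7 lower, where it was 7.94%. In these comparisons the summed microglia and blood markers, mostly miR-155-5p, lay at 84.2 to 127 CPM in shStau2, 127 to 182 in shNTC and 133 to 186 in shPum2. In the same order miR-21-5p lay at 1211 to 1886, 2316 to 4914 and 1528 to 2970 CPM. The part of these miRNAs in the piRNA values was not tested. Values are shares of a library, so more of a piRNA name per cell and less of other RNA cannot be told apart.

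Without the block, the 3 names of smallest p and at least 10 CPM in each comparison did not pass. The largest difference among them was that of rno_piR_028761 between shStau2 and shPum2 (log2 fold change 0.90, edgeR adjusted p = 0.263), followed by rno_piR_012452 in the same comparison (-0.64, edgeR adjusted p = 0.462). Between shPum2 and shNTC the log2 fold change was 0.50 for rno_piR_000219 and -0.44 for rno_piR_028761 (edgeR adjusted p = 0.988 for both). Below 10 CPM, rno_piR_036566 had the smallest p between shPum2 and shNTC, with a log2 fold change of -0.93 (edgeR adjusted p = 0.988), and was chosen after its values were seen. rno_piR_005552 was at 40.1, 36.3, 37.3 and 49.2 CPM in shNTC, 46.8, 44.7, 50.4 and 52.8 CPM in shStau2, and 39.2, 41.8, 35.8 and 41.3 CPM in shPum2. Its shStau2 libraries lay above all shPum2 libraries and overlapped those of shNTC. The log2 fold change was 0.26 (SE 0.12, edgeR adjusted p = 0.5) against shNTC and 0.30 (SE 0.12, edgeR adjusted p = 0.472) against shPum2. For rno_piR_010438 it was 0.38 in shStau2 against shNTC (SE 0.20, edgeR adjusted p = 0.539). For rno_piR_005595 it was 0.19 (SE 0.10, edgeR adjusted p = 0.535), from a mean of 989.5 ± 112 CPM in shNTC to 1131 ± 69.9 CPM in shStau2 (SD, n = 4). For rno_piR_005901 it was 0.18 in shPum2 against shNTC (SE 0.10, edgeR adjusted p = 0.988).

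Because the numbers paired the libraries, the fit with the replicate number as a block was read beside the first. It called 2 of 90 piRNA names in shStau2 against shNTC, both higher (2.22%, where 6.13% of all names were called and 2.79% were called as higher). It called 1 in shPum2 against shNTC, which was higher (1.11%, where 0.279% were called and 0.139% were called as higher). In shStau2 against shPum2 it called 4, of which 1 was higher and 3 were lower (4.44%, where 4.32% were called, 1.81% as higher and 2.51% as lower). These calls fell on 5 names of 17.1 to 46.7 CPM on average, and none was among the 10 most abundant. The sources used here do not say what the RNAs behind these 5 names are.

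rno_piR_009003 rose in both shStau2 and shPum2 under the block. In shNTC it was at 32.4, 26.3, 27.6 and 59.1 CPM in replicates 1 to 4. In shStau2 it was at 39.6, 35.3, 37.6 and 77.6 CPM, and in shPum2 at 44.1, 44.4, 37.1 and 99.7 CPM. Each shStau2 and shPum2 library lay above the shNTC library of its number, while the groups as wholes overlapped because replicate 4 stood high in all 3. Means were 36.3 ± 15.4, 47.5 ± 20.2 and 56.3 ± 29.1 CPM (SD, n = 4). With the block the log2 fold change was 0.39 in shStau2 (SE 0.10, edgeR adjusted p = 0.0266) and 0.60 in shPum2 (SE 0.10, edgeR adjusted p = 0.00404) against shNTC. Without it the edgeR adjusted p was 0.791 and 0.988. Between shStau2 and shPum2 the log2 fold change was -0.22 (edgeR adjusted p = 0.212 with the block). The call in shStau2 was lost when any 1 number was left out (edgeR adjusted p = 0.091 to 0.14), and that in shPum2 when number 4 was left out (edgeR adjusted p = 0.114).

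rno_piR_028761 was the name with the smallest p between shStau2 and shPum2. In shStau2 it was at 40.5, 24.7, 38.9 and 29.8 CPM in replicates 1 to 4. In shPum2 it was at 18.6, 15.5, 22.6 and 14.8 CPM, and in shNTC at 29.7, 12.8, 33.4 and 20.5 CPM. All shStau2 libraries lay above all shPum2 libraries, 1 of the 2 piRNA names higher without overlap. The shNTC libraries overlapped both. Means were 33.5 ± 7.5 CPM in shStau2, 17.9 ± 3.59 in shPum2 and 24.1 ± 9.26 in shNTC (SD, n = 4). With the block the log2 fold change of shStau2 was 0.90 against shPum2 (SE 0.13, edgeR adjusted p = 0.000423) and 0.49 against shNTC (SE 0.13, edgeR adjusted p = 0.0266). Without the block the edgeR adjusted p was 0.263 and 0.552. The call against shPum2 was kept in each of the 4 block fits that left out a number (edgeR adjusted p = 0.000253 to 0.0213). The call against shNTC was kept without number 3 (edgeR adjusted p = 0.026) and lost without number 1, 2 or 4 (edgeR adjusted p = 0.101, 0.0956 and 0.16). Between shPum2 and shNTC the log2 fold change was -0.41 (edgeR adjusted p = 0.327 with the block).

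The remaining 3 names were lower in shStau2 than in shPum2 under the block. rno_piR_012452 was at 14.2, 15.4, 21.6 and 21.8 CPM in shStau2, 23.0, 23.9, 26.8 and 40.2 CPM in shPum2, and 22, 15.9, 24.1 and 28.7 CPM in shNTC. Its shStau2 libraries lay below all shPum2 libraries, which makes it the piRNA name that was lower without overlap in this comparison. The log2 fold change of shStau2 against shPum2 was -0.63 (SE 0.13, edgeR adjusted p = 0.00846 with the block and 0.462 without). The call was lost without number 1 (edgeR adjusted p = 0.0583) and without number 4 (0.107). rno_piR_019073 was at 9.67, 21.0, 12.2 and 5.68 CPM in shStau2, 22.5, 25.6, 32.3 and 12.0 CPM in shPum2, and 11.2, 23.9, 24.3 and 4.35 CPM in shNTC. Replicate 4 was its lowest library in every group, and shStau2 lay below shPum2 in all 4 pairs. Its log2 fold change was -0.97 (SE 0.20, edgeR adjusted p = 0.0119 with the block and 0.587 without). The call was kept without number 2 and lost without number 1, 3 or 4 (edgeR adjusted p = 0.0637, 0.084 and 0.0523).

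rno_piR_000219 was at 32.6, 36.7, 30.1 and 49.0 CPM in shStau2, 49.9, 34.3, 45.3 and 71.3 CPM in shPum2, and 32.6, 32.2, 31.8 and 45.8 CPM in shNTC. Its shPum2 library was the highest of its number in 3 of the 4 numbers, and in number 2 the shStau2 library was. The log2 fold change of shStau2 against shPum2 was -0.43 (SE 0.11, edgeR adjusted p = 0.0323 with the block and 0.536 without). It was kept without number 2 and lost without number 1, 3 or 4 (edgeR adjusted p = 0.225, 0.203 and 0.193). Of shPum2 against shNTC it was 0.48 (SE 0.11, edgeR adjusted p = 0.0753 with the block), which did not pass.

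**Figure D5:**
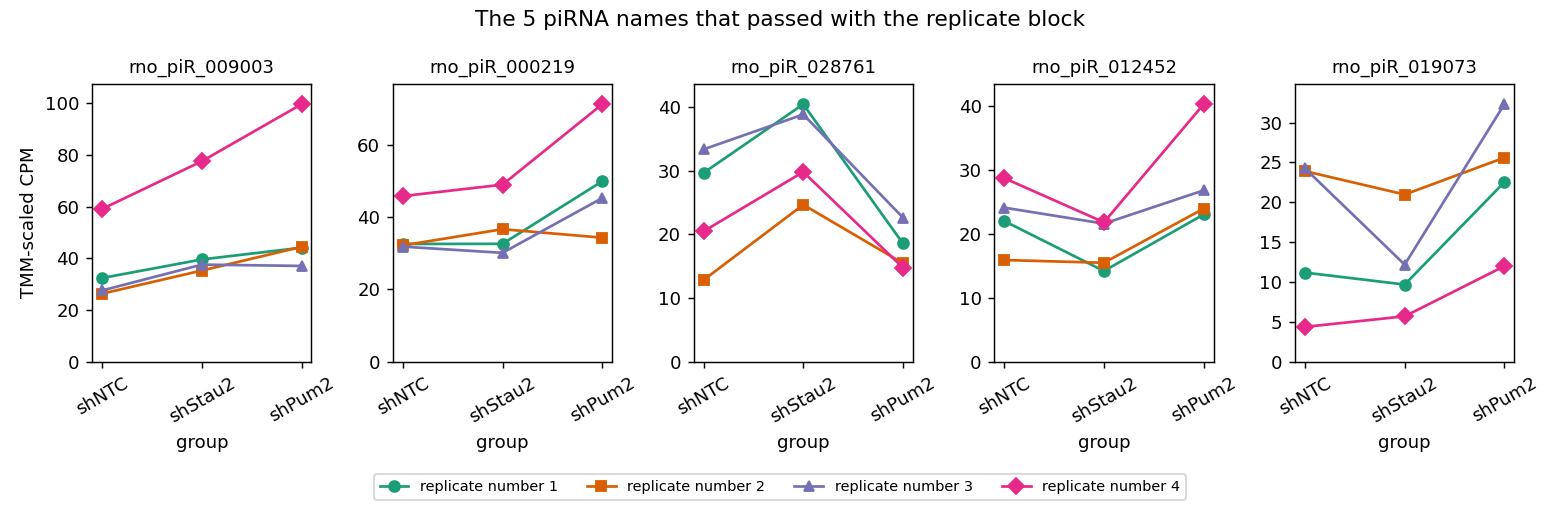
TMM-scaled CPM (y axis, starting at 0) in the 3 groups (x axis) for the 5 piRNA names called in any comparison with the replicate block, with 1 point per library and lines joining the same replicate number. In rno_piR_009003 the line of replicate number 4 runs at 59.1 to 99.7 CPM and the others at 26.3 to 44.4 CPM. Some lines cross in each of the 5 names.

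shStau2 replicates 2 and 3 are in other sets of shared zeros than the shNTC and shPum2 libraries of their number. With the set as a covariate beside the block, 0 piRNA names were called between shStau2 and shNTC (1.67% of all names), 1 between shPum2 and shNTC (0.139%), and 2 between shStau2 and shPum2 (1.11%). The log2 fold changes of the calls lost between shStau2 and shNTC kept their direction, at 0.57 for rno_piR_028761 (SE 0.18, edgeR adjusted p = 0.192) and 0.34 for rno_piR_009003 (SE 0.14, edgeR adjusted p = 0.342). Both SE were larger than with the block alone. The names still called were rno_piR_009003 in shPum2 against shNTC (edgeR adjusted p = 0.0252) and rno_piR_028761 and rno_piR_012452 in shStau2 against shPum2 (edgeR adjusted p = 0.0182 and 0.0285). With DESeq2 and the block, the counts were 1, 1 and 0, where 7.13%, 0.373% and 9.97% of all names with an adjusted p were called. The names called were rno_piR_005598 in shStau2 against shNTC and rno_piR_009003 in shPum2 against shNTC. Its filtering left 69, 120 and 24 piRNA names with an adjusted p, and the 4 names called by edgeR between shStau2 and shPum2 were not among the 24. rno_piR_032142 was singled out after its values were seen, for its fitted difference between shStau2 and shPum2. It was at 5.85, 3.69, 1.49 and 4.50 CPM in shStau2 and 0.697, 0, 0 and 1.5 CPM in shPum2 (edgeR adjusted p = 0.472 without the block and 0.0577 with it), and it was called in the block fit without number 2. Both zeros were in set B, where it was 0 in all 4 libraries, so no fold is given.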

How the data were processed

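For each of the 12 libraries the authors deposited a table of counts by small RNA name. The values were whole numbers with unequal totals, not normalised. The libraries came from a kit with unique molecular identifiers, made from batch-isolated RNA (integrity number 9.5), per the labels' protocols. Per the submitters' processing notes, the build was Rnor 6.0. The aligner, counter and piRNA catalogue were not given in the sources used here. Members and lists were chosen with earlier results of these data known.

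All names were fitted together in R 4.3.3 with edgeR 4.0.16: TMM scaling, filterByExpr by group, robust quasi-likelihood test over 12 libraries, Benjamini-Hochberg adjustment over 718 names, two-sided, called at an adjusted p of 0.05. DESeq2 1.42.0, other scalings and filters, and left-out libraries were alternatives. Correlations used log2(CPM + 1) with group means removed. Per-library values had exact permutation tests. The fit was tested on simulated data.

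Numbers counted as pairing the libraries where every same-number r passed 0.1. Over all 718 names, r was 0.341 to 0.594 for same-number pairs and -0.403 to 0.126 for others. The labels call the libraries biological replicates without naming cultures, so p-values measure the spread between these libraries. No libraries were identical.

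Named were the 10 most abundant piRNA names, those past the threshold without or with the block (up to 5 a direction) or else the 3 of smallest p, the 5 most and 3 least between numbers (all of at least 10 CPM), and the 3 nearest the filter on each side.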

Additional observations from a re-analysis of the deposited data

Results flagged for a closer look

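In 96 groups of 4 libraries (named piRNA names and per-library values in the 3 groups), the highest or lowest library was compared with the other 3, and 8 groups had a library that stood apart. For independent normal values such a library appears in about 5% of groups. Some of these names were chosen from the same data for their spread between numbers or their small p. The detected counts follow the sets of shared zeros. The 5% is therefore no measure for these 8. In 7 of the 8 it was a replicate 4. The number of piRNA names detected was 106 in shNTC replicate 4 and 106 in shPum2 replicate 4, against 102 in the other libraries of those groups, and both are in set C of the shared zeros. rno_piR_009003 was at 77.6 CPM in shStau2 replicate 4, against 35.3 to 39.6 CPM in the other shStau2 libraries, and at 99.7 CPM in shPum2 replicate 4, against 37.1 to 44.4 CPM. rno_piR_005595 was at 1157 CPM in shNTC replicate 4, against 926 to 944 CPM. rno_piR_000219 was at 45.8 CPM in shNTC replicate 4, against 31.8 to 32.6 CPM. rno_piR_010718 was at 3.64 CPM in shPum2 replicate 4, against 0 to 0.232 CPM, and 2 of its zeros are in set B. rno_piR_005567 was at 757 CPM in shStau2 replicate 2, against 479 to 515 CPM.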

How the results depend on the processing

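Without a replicate block, the counts of called piRNA names stayed at 0, 0 and 0 (shStau2 against shNTC, shPum2 against shNTC, shStau2 against shPum2) under every scaling, filter, test and left-out library tried. With the replicate block they were 2, 1 and 4, and with a number left out they ranged from 0 to 1, from 0 to 3 and from 1 to 7. The calls over all names moved too. In shStau2 against shNTC they were 44 with the block, and 23, 23, 25 and 5 without numbers 1 to 4. Alternatives beside the block were chosen after seeing the data: DESeq2 gave 1, 1 and 0, library totals 0, 1 and 5, DESeq2 size factors 2, 1 and 5, names with a count in all 12 libraries 2, 1 and 5, and the set of shared zeros as a covariate 0, 1 and 2. In shStau2 against shNTC, library totals called 37 of all names, DESeq2 size factors 36 and names with a count in all 12 libraries 36. For the other comparisons these counts over all names are not given here, so changes in the piRNA counts cannot be read as particular to piRNA names. The count of piRNA names that differ between numbers was 36, ranged from 22 to 44 over left-out libraries and numbers, and was 14 with the set as a covariate. The shares of all names in those fits are not given here, and the cause was not tested. The fold changes of the names chosen for a comparison kept their sign in that comparison under the alternatives run. Near the filter, the log2 fold change of shPum2 against shNTC turned with the block from 0.11 to -0.06 for rno_piR_010718 and from 0.00 to -0.05 for rno_piR_010428.

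Some differences in per-library values did change sign when 1 library was left out. Leaving out 1 library also left the replicate numbers unequal between the groups. For shStau2 against shNTC, the share ranged from -0.00805 to 0.0880, the share without the leading name from -0.0143 to 0.0731, the portion of the leading name from -0.00948 to 1.28 and total counts from -386413 to 140058. For shPum2 against shNTC, the share without the leading name ranged from -0.00238 to 0.0961, the portion of the leading name from -0.159 to 1.13, total counts from -495560 to 30911 and names detected from -1 to 1. For both comparisons of shStau2, names detected ranged from 0 to 1.75. For shStau2 against shPum2, the share ranged from -0.0738 to 0.0390, the share without the leading name from -0.0687 to 0.0341, the portion of the leading name from -0.18 to 0.598 and total counts from -84458 to 336606. Depth limits names near the filter, where a library's 3 counts were 0.554 to 0.782 CPM before scaling.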
